A study of Mus musculus with 6 samples.

Results

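The genes of glycolysis and of the hypoxia response were followed across 6 microarrays of undifferentiated mouse embryonic stem (ES) cells. The list held 37 genes, from glucose transporters and glycolytic enzymes to the oxygen sensors and other targets of the hypoxia-inducible factor HIF. A gene was taken as measured when at least 1 probe set on the Affymetrix Mouse Gene 1.0 ST array was annotated with its symbol and no other. This held for 33 genes with 40 probe sets, among 19939 genes measured in this way. Gpi1, Eno1 and Mpc2 had no such probe set and were not analysed here, and Gapdh, whose 25 probe sets also list other symbols, was left out. The tested line was Cl34, labelled Hira-/- and called Hira-null here, with 3 arrays. It was set against its parental line w9.5, labelled wild type (WT), also with 3 arrays. Both lines were grown in KnockOut DMEM with ES-qualified serum, mercaptoethanol and ESGRO, a leukaemia inhibitory factor preparation, and were scraped into cold PBS before Trizol extraction. Cells were harvested at several degrees of confluence, and no label says which array had which. Each genotype is represented by 1 line, so loss of Hira and other differences between these lines cannot be told apart.

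Glycolysis splits glucose into pyruvate, which is either reduced to lactate and exported or carried into mitochondria and oxidised. Mouse ES cells in serum and leukaemia inhibitory factor use both routes. When oxygen is plentiful, prolyl hydroxylases of the EGLN family mark the HIF alpha subunit for destruction by the VHL ubiquitin ligase. When oxygen is scarce, HIF alpha pairs with ARNT and binds the letters ACGTG or GCGTG, the core of the hypoxia response element. Its targets include most glycolytic genes, as well as genes for vessel growth, collagen hydroxylation and mitophagy.

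All values are log2 expression values as deposited, and a difference is always the Hira-null mean minus the WT mean. Errors are the SD of a line (n = 3) or the standard error of the difference in limma (SE). The labels call the arrays biological replicates without saying whether they came from separate cultures, so the p-values reflect array-to-array spread that may be technical. That spread may also hold differences in confluence, which no label ties to an array, and this was not tested. Array medians lay between 4.93 and 5.02, and the number of arrays limits the precision. Hira-null replicate 3 stood apart, at 65.6 on the first principal component (41.7% of the variance) against -32.0 to 1.95 for the other 5 arrays. Members' differences that changed sign or moved by over 1.5 times without it are given both ways. The Hira probe set read 7.40, 7.05 and 6.81 in Hira-null against 7.49, 7.86 and 7.83 in WT arrays (-0.64, limma adjusted p = 0.352), and the deleted exons are not stated in the labels. ES cell markers were high on all 6 arrays, with a mean over 8 genes between 10.2 and 10.8.

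Most of these genes had lower means in the Hira-null arrays. For 29 of the 32 tested, the wider range within a line exceeded the difference between the lines, against 90.3% of all genes. Of 32 members that passed a filter on low values, 25 had a lower mean in Hira-null arrays, against 50.8% of the 15199 genes tested. Their median log2 fold change was -0.31, against -0.0067 over all genes tested. The filter asked for at least 3 of the 6 arrays above 3.78, the 30th percentile of all values, and the acid-base enzyme gene Car9 did not pass it. None of the 32 members passed the test in either direction (limma, Benjamini-Hochberg over 25142 probe sets, threshold 0.05), as for 0% of all genes tested in each direction (0.00398% of probe sets in the lower direction). At an unadjusted p under 0.05, 3 members were lower and 1 was higher, against 6.29% and 4.17% of all genes and 6.06% and 4.06% of probe sets. In all that was 4 members, against 10.5% of all genes. Leaving out 1 array at a time gave between 4 and 10 members, against 7.12% to 10.6% of all genes, with none past the adjusted threshold. The highest counts were 7 without Hira-null replicate 2 (9.8% of all genes) and 10 without WT replicate 2 (7.97%). Hira-null replicate 2 was the highest Hira-null array for 23 of 32 members and WT replicate 2 the lowest WT array for 28 of 32. Leaving out either array therefore lowers the difference for such members. The arrays of the lines did not overlap for 4 members that were lower and 1 that was higher, against 9.55% and 7.8% of all genes (17.4% in all). Of the 4 lower members 3 lie on chromosomes 8 and 11, as do 2 of the 3 lower at an unadjusted p under 0.05. Genes of these chromosomes as a whole read lower in Hira-null arrays. Outside them 1 of 27 members was lower without overlap and 1 higher, against 717 and 1152 of 13039 genes. At an unadjusted p under 0.05 it was also 1 and 1, against 357 and 622 of 13039. Without Hira-null replicate 3 the median of the 32 members was -0.14, 21 of them were lower and 4 had an unadjusted p under 0.05, against 10.6% of all genes.

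**Figure D1:**
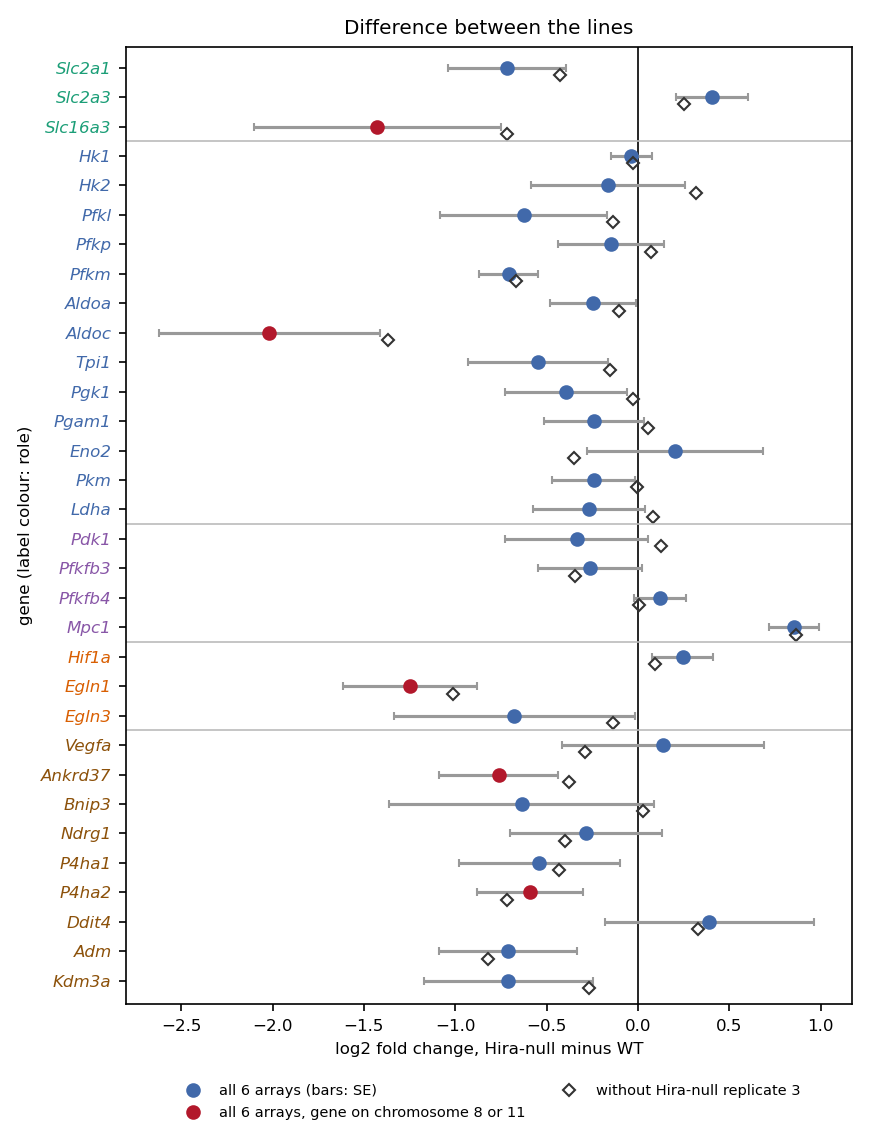
Log2 fold change, Hira-null minus WT, of the 32 tested genes of glycolysis and the hypoxia response, grouped by role. Filled points and bars are the estimate and SE over 6 arrays (red for genes on chromosomes 8 and 11), and open diamonds leave out Hira-null replicate 3, which puts Slc16a3 at -0.72 beside -1.43 with all arrays and leaves Mpc1 at 0.86 and Pfkm at -0.67.

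Promoter sequences are shown for the members whose lines did not overlap and for the 5 members with the widest range within a line. Each is the 100-base stretch with the most core hypoxia letters among the 250 bases before the first RefSeq start listed for the gene (GRCm38.p6). Capitals mark ACGTG or GCGTG on either strand, so that they also appear as CACGT or CACGC. The palindrome CACGTG, which other factors also bind, counts as ACGTG on both strands.
Bnip3, chr7:138909537-138909636, minus strand: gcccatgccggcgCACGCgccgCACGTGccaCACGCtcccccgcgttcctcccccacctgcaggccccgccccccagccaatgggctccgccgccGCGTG
Slc16a3, chr11:120948967-120949066, plus strand: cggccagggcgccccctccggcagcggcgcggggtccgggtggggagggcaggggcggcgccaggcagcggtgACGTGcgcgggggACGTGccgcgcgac
Egln3, chr12:54204025-54204124, minus strand: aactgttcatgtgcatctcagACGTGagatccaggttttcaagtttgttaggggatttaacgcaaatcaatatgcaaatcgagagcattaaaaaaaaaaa
Aldoc, chr11:78322973-78323072, plus strand: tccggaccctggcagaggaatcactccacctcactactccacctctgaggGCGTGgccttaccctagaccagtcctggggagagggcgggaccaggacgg
Ddit4, chr10:59951869-59951968, minus strand: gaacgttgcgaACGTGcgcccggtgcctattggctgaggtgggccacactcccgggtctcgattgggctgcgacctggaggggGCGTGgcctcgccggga
Egln1, chr8:124949299-124949398, minus strand: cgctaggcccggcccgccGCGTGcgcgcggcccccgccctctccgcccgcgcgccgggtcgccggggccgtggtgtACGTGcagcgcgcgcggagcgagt
Ankrd37, chr8:45999992-46000091, minus strand: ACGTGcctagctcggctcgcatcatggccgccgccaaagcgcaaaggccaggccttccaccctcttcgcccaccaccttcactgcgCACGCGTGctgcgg
Pfkm, chr15:98092406-98092505, plus strand: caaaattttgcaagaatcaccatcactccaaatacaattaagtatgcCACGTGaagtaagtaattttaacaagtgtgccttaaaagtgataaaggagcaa
Mpc1, chr17:8283537-8283636, plus strand: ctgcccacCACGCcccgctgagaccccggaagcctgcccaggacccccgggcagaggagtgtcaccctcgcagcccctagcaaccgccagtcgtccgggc
RefSeq promoters were matched for 35 of the 37 listed genes, among them Car9, Eno1, Gapdh, Gpi1 and Mpc2, which were not tested on the arrays. ACGTG stood in 17 of the 35 promoters (48.6%), against 20.9% of the 11961 promoters of genes tested on the arrays. GCGTG stood in 19 (54.3%, against 42.6%), and either of them in 28 (80.0%, against 53.5%). ACGTG was in 6 of 9 promoters of the other HIF targets, in all 3 oxygen-sensing genes and in 5 of 16 glycolytic enzymes. The members' promoters held a median of 16 CG pairs and those of the genes tested 14. The list was built around HIF targets, so a higher share of these letters is no independent finding. Such letters in a window describe the sequence and do not show that HIF binds there.

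The transporters pointed in both directions. Slc16a3, which encodes the lactate exporter MCT4, read 7.99, 9.08 and 6.4 in Hira-null replicates 1 to 3, against 9.71, 8.42 and 9.62 in WT. Hira-null replicate 3 was the lowest by far, and Hira-null replicate 2 lay above WT replicate 2. The log2 fold change was -1.43 (SE 0.68), a 2.69-fold lower mean, and did not pass (limma adjusted p = 0.539). It was -0.72 without Hira-null replicate 3. Slc2a1, the gene of the ubiquitous glucose transporter GLUT1, had 10.69, 11.38 and 10.16 in Hira-null arrays and 11.67, 11.07 and 11.64 in WT arrays, a difference of -0.72 (SE 0.32, limma adjusted p = 0.514) that was -0.42 without Hira-null replicate 3. Slc2a3, the gene of the high-affinity transporter GLUT3, was higher on average in Hira-null arrays, at 11.88, 11.90 and 12.36, against 11.91, 11.40 and 11.61 in WT. Its difference was 0.41 (SE 0.20, limma adjusted p = 0.548), and 0.25 without Hira-null replicate 3. In Hira-null replicate 3 the 2 glucose transporters thus stood at opposite ends of their line, Slc2a1 lowest and Slc2a3 highest.

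Of the 13 glycolytic enzymes tested, 12 had lower means in Hira-null arrays, with a median log2 fold change of -0.25, and none passed the test. Without Hira-null replicate 3 the median was -0.03 and 9 of 13 were lower. Aldoc, which encodes the brain-type aldolase, had the largest difference. It read 7.29, 7.84 and 5.62 in Hira-null arrays, against 9.61, 8.19 and 9.0 in WT arrays. All Hira-null arrays lay below all WT arrays, and the 4.05-fold lower mean (log2 fold change -2.02, SE 0.60) did not pass (limma adjusted p = 0.352). Without Hira-null replicate 3 it was -1.37. The muscle-type phosphofructokinase gene Pfkm also separated the lines, with 7.15, 7.23 and 7.07 in Hira-null arrays against 8.10, 7.58 and 7.89 in WT. The Hira-null arrays of Pfkm spanned only 0.16, and the difference of -0.71 (SE 0.16) had an unadjusted p of 0.0033 and an adjusted p of 0.241 in limma. It was -0.67 without Hira-null replicate 3.

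The other phosphofructokinase genes did not separate the lines. Pfkl, the liver type, averaged 8.80 ± 0.88 in Hira-null and 9.42 ± 0.52 in WT arrays, and Pfkp, the platelet type, 9.46 ± 0.48 in Hira-null and 9.61 ± 0.40 in WT arrays. Their differences of -0.63 and -0.15 were -0.14 and 0.068 without Hira-null replicate 3. Aldoa, the main aldolase of most tissues, averaged 11.5 ± 0.27 in Hira-null and 11.7 ± 0.39 in WT arrays, a difference of -0.25 (-0.11 without Hira-null replicate 3) beside the -2.02 of Aldoc. Hk2, the inducible hexokinase gene, read 9.80, 10.31 and 8.62 in Hira-null arrays and 9.75, 9.39 and 10.08 in WT. Its highest and lowest arrays of all 6 both belonged to the Hira-null line. Without Hira-null replicate 3 the difference for Hk2 was 0.32 rather than -0.16. Hk1, the housekeeping hexokinase gene, was represented by a probe set that stayed between 11.94 and 12.06. The accession behind that probe set is shared with 16 others annotated to both Hk1 and the ribosomal protein gene Rpl17, so which transcript it reads is not settled. The other Hk1 probe set, whose annotation lists RefSeq transcripts of Hk1, gave 6.84, 7.07 and 7.31 in Hira-null arrays and 8.14, 7.0 and 7.38 in WT arrays.

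The enzymes of the later steps of glycolysis differed more between arrays of a line than between the lines. Tpi1, the triose phosphate isomerase gene, stood at -0.55 (SE 0.38) and Pgk1, the phosphoglycerate kinase gene, at -0.39 (SE 0.34). Pgam1, Pkm and Ldha, which encode a phosphoglycerate mutase, the M-type pyruvate kinase and the lactate dehydrogenase A subunit, stood at -0.24, -0.24 and -0.27. Ldha read 11.62, 11.79 and 10.65 in Hira-null arrays, against 11.72, 11.37 and 11.78 in WT arrays, so that 1 Hira-null array carried the lower mean. With that array left out these differences were -0.15 for Tpi1, -0.03 for Pgk1, 0.06 for Pgam1, -0.005 for Pkm and 0.08 for Ldha. The 3 probe sets of Pgk1 ranged between -0.42 and -0.39 in log2 fold change and the 3 of Pgam1 between -0.24 and -0.23, and 2 probe sets of each gene held the same values on every array. Signal from near-identical gene copies was not separated. Eno2, the neuronal enolase gene, was the enzyme with a higher mean, through a value of 6.89 in Hira-null replicate 3 beside 5.01 and 5.45 in replicates 1 and 2 of that line, against 6.07, 5.24 and 5.43 in WT arrays. Its difference was 0.20, and -0.35 without that array.

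Among the genes that steer pyruvate and glycolytic flux, Mpc1 had the smallest p of all tested members. It encodes a subunit of the mitochondrial pyruvate carrier. Mpc1 read 6.68, 6.81 and 6.72 in Hira-null arrays, against 5.68, 5.97 and 6.0 in WT arrays, a difference of 0.85 (SE 0.14) or 1.81-fold higher. Neither line spanned more than 0.32. Where the Mpc1 probe set maps was not checked, and signal from near-identical gene copies was not separated. The unadjusted p was 0.00044 and the adjusted p 0.220 (limma), so the difference did not pass, and it was 0.86 without Hira-null replicate 3. Pdk1, the gene of the kinase that switches off pyruvate dehydrogenase, had 8.43, 9.0 and 7.33 in Hira-null and 8.55, 8.48 and 8.74 in WT arrays. Its Hira-null arrays spanned 1.67 and its WT arrays 0.26, and the difference of -0.34 was 0.125 without Hira-null replicate 3. Pfkfb3 and Pfkfb4 encode enzymes that make or remove fructose 2,6-bisphosphate, an activator of phosphofructokinase. They stood at -0.26 (SE 0.28) and 0.12 (SE 0.14), the second at 0.0067 without Hira-null replicate 3.

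Of the oxygen-sensing genes, Hif1a itself varied little, with 8.55, 8.47 and 8.96 in Hira-null and 8.36, 8.56 and 8.33 in WT arrays (difference 0.24, SE 0.17, limma adjusted p = 0.705, and 0.093 without Hira-null replicate 3). HIF1A is regulated mainly through the stability of the protein, which these arrays do not measure. The 2 prolyl hydroxylase genes, both HIF targets in turn, varied much more. Egln1, the gene of the main hydroxylase PHD2, read 6.37, 7.03 and 5.99 in Hira-null arrays, against 8.22, 7.04 and 7.87 in WT. Hira-null replicate 2 and WT replicate 2 all but met, and only there did the lines come close. The Hira-null mean was 2.37-fold lower (log2 fold change -1.25, SE 0.37) and did not pass (limma adjusted p = 0.344). Without Hira-null replicate 3 the difference was -1.01. Egln3, the gene of the strongly hypoxia-inducible hydroxylase PHD3, read 6.38, 7.81 and 5.48 in Hira-null arrays and 7.61, 6.19 and 7.90 in WT arrays. It spanned 2.33 within the Hira-null line and 1.71 within WT, against a difference of -0.68 (SE 0.66) between the lines. That difference was -0.14 without Hira-null replicate 3 and -1.30 without Hira-null replicate 2.

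**Figure D2:**
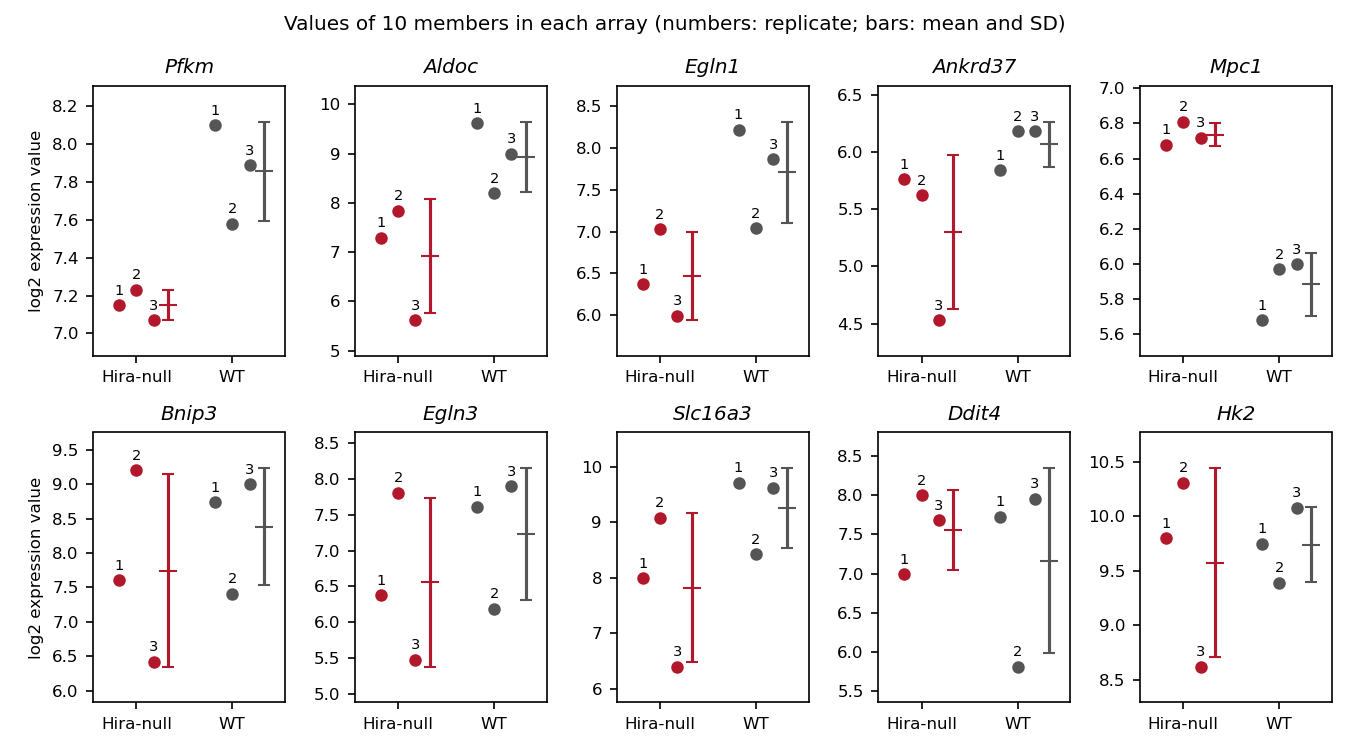
Log2 values of 10 genes in each array, with the replicate number above each point and the mean and SD (n = 3) beside each line. In the upper row (Pfkm, Aldoc, Egln1, Ankrd37 and Mpc1) the lines do not overlap, and in the lower row (Bnip3, Egln3, Slc16a3, Ddit4 and Hk2) they do, with Bnip3 spanning 2.79 within the Hira-null line.

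Of the 9 other HIF targets tested, 7 had lower means in Hira-null arrays, with a median of -0.59 (-0.38 without Hira-null replicate 3), and none passed the test. Bnip3, a mitophagy receptor gene, had the widest range within a line of all tested members. It read 7.61, 9.21 and 6.42 in Hira-null arrays, against 8.74, 7.41 and 9.0 in WT arrays, and the highest and lowest values both came from the Hira-null line. The difference was -0.64 (SE 0.72), and 0.027 without Hira-null replicate 3. Its other probe set gave the same order of the 6 arrays, with 7.32, 8.50 and 6.27 in Hira-null and 8.03, 7.20 and 8.30 in WT arrays. The Hira-null range of that probe set was narrower, and below the 2.68 of Slc16a3 and the 2.33 of Egln3. Ankrd37, an ankyrin repeat gene, was the remaining member without overlap, at 5.76, 5.62 and 4.53 in Hira-null and 5.84, 6.18 and 6.18 in WT arrays. Its difference of -0.76 (SE 0.33, limma adjusted p = 0.498) was -0.38 without Hira-null replicate 3.

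Ddit4, the gene of the mTOR inhibitor REDD1, read 6.99, 8.0 and 7.68 in Hira-null arrays and 7.73, 5.81 and 7.96 in WT arrays. WT replicate 2 alone set its WT mean below the Hira-null mean, and without that array the difference was -0.29 instead of 0.39. Vegfa, the vascular growth factor gene, had 6.38, 7.39 and 8.17 in Hira-null and 7.83, 6.21 and 7.49 in WT arrays. Here Hira-null replicate 3 was the highest array, whereas it was the lowest for Bnip3 and Egln3. The difference was 0.14, and -0.29 without it. The collagen prolyl hydroxylase genes P4ha1 and P4ha2 stood at -0.54 (SE 0.44) and -0.59 (SE 0.29). Adm, the adrenomedullin gene, stood at -0.71 (SE 0.38) and Ndrg1, a stress-response gene, at -0.29 (SE 0.42). Kdm3a, a histone H3K9 demethylase gene, was lowest in WT replicate 1 among the WT arrays, as was Ankrd37, with 8.36, 8.03 and 6.87 in Hira-null replicates 1 to 3 against 7.72, 9.0 and 8.67 in WT replicates 1 to 3. Its difference was -0.71 (SE 0.46), and -0.27 without Hira-null replicate 3. Car9 lay at 3.19 to 3.63 in Hira-null and 3.56 to 3.77 in WT arrays, under the filter on every array.

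The spread within each line was wide for these genes. The median range over the 3 arrays was 1.06 in the Hira-null line and 0.79 in WT for the 32 tested members, against 0.39 and 0.31 over all genes tested. For 29 of the 32 the wider of the 2 ranges exceeded the difference between the lines, against 90.3% of all genes. The exceptions were Mpc1, Pfkm and Egln1. The arrays also kept a common order, which was noticed in these data and is given as a description. Hira-null replicate 2 was the highest Hira-null array for 23 of 32 members, against 29.8% of all genes, and Hira-null replicate 3 the lowest for 20 of 32, against 37.7%. Hira-null replicate 3 was instead the highest for 7, against 38.5% of all genes, namely Slc2a3, Eno2, Pfkfb3, Pfkfb4, Hif1a, Vegfa and P4ha2. WT replicate 2 was the lowest WT array for 28 of 32, against 33.6%, and WT replicate 1 the highest for 18 of 32, against 38.9%. The 4 members for which WT replicate 2 was not lowest were Kdm3a, Ankrd37, Hif1a and Mpc1.

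Among the glycolytic enzymes, WT replicate 2 was lowest for 13 of 13, Hira-null replicate 3 lowest for 12 of 13 and Hira-null replicate 2 highest for 12 of 13, with Eno2 as the exception in the last 2 counts. WT replicate 1 was highest for 9 of 13 enzymes. With its other probe set, at 6.84, 7.07 and 7.31 in Hira-null replicates 1 to 3, Hk1 would be a second exception in the 2 Hira-null counts. The Hk1 probe set counted here spanned only 0.03 in Hira-null arrays. As the median deviation from each gene's mean over the 6 arrays, the enzymes stood at -0.06, 0.29 and -0.71 in Hira-null replicates 1 to 3, against 0.39, -0.13 and 0.31 in WT. The other HIF targets had -0.59, 0.14 and -0.14 in Hira-null and 0.39, -0.53 and 0.56 in WT arrays. The low values of Hira-null replicate 3 were thus deeper for the enzymes, and those of Hira-null replicate 1 and WT replicate 2 for the other HIF targets. All genes tested stayed between -0.03 and 0.01 in every array.

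**Figure D3:**
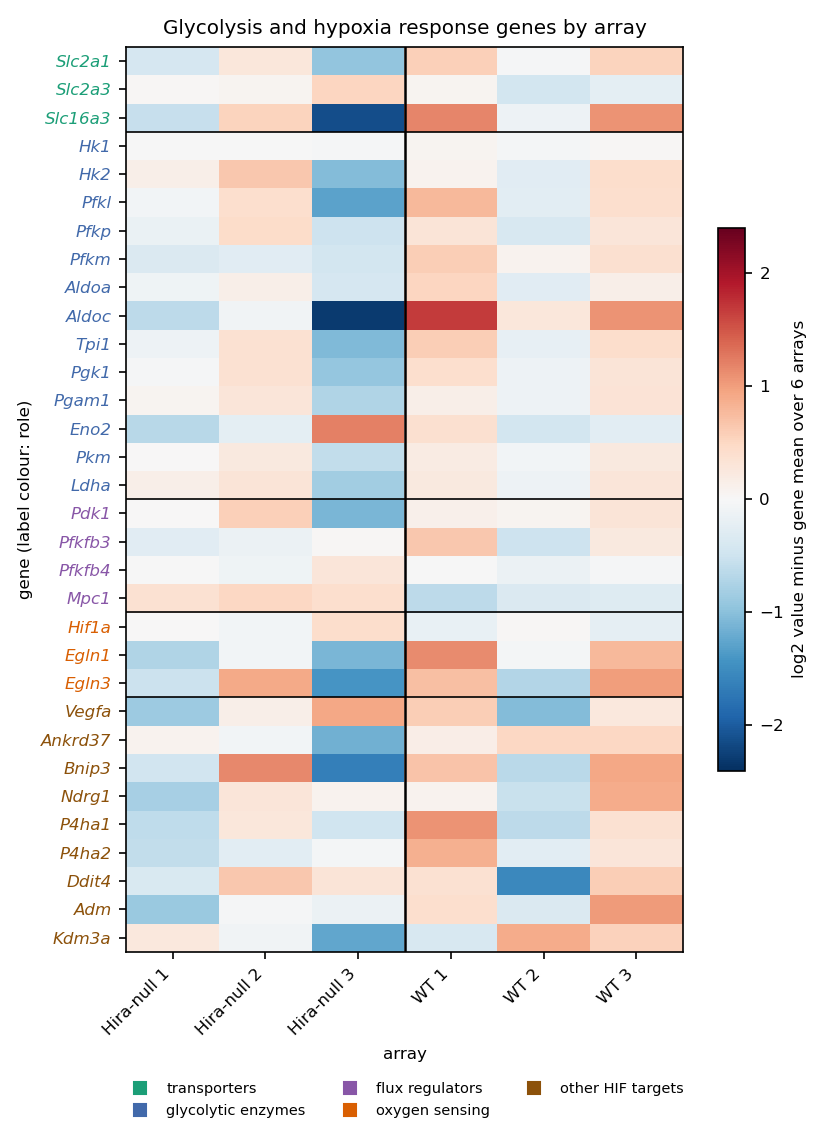
Log2 value minus the gene's mean over 6 arrays for the 32 tested genes (rows, by role) in each array (columns, Hira-null then WT), red for above and blue for below the mean. Hira-null replicate 3 is blue for most transporters and enzymes but red for Eno2 and Vegfa, and WT replicate 2 is blue or near white for all but a few genes such as Kdm3a and Ankrd37.

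**Figure D4:**
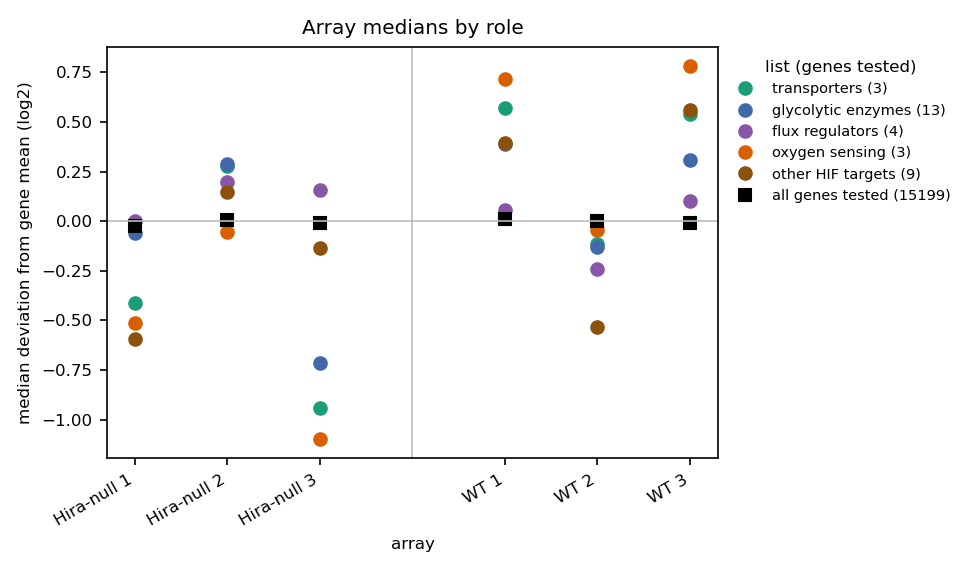
Median deviation (log2) of each role group in each array, with the number of genes tested, beside all genes tested (black squares). The glycolytic enzymes reach 0.29 in Hira-null replicate 2 and -0.71 in Hira-null replicate 3, and the lines overlap for every role except oxygen sensing. There Hira-null replicate 2 (-0.06) lies just below WT replicate 2 (-0.05). This role holds 3 genes, and both of these medians are the values of Egln1, on chromosome 8. For Hif1a and Egln3 the lines overlap.

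Other cell states also differed between these arrays, and their part in the order of the arrays was not tested. The 8 ES cell markers, among them Pou5f1, Nanog and Sox2, were all lowest in Hira-null replicate 3 within their line, against 37.7% of all genes. Their median deviations were 0.22, 0.16 and -0.34 in Hira-null and -0.12, -0.01 and 0.05 in WT arrays. Of 12 fibroblast markers 9 passed the filter, with a mean level of 6.04 to 6.58 in Hira-null and 6.30 to 6.79 in WT arrays and median deviations of -0.23, -0.15 and 0.17 in Hira-null and 0.43, -0.03 and -0.07 in WT arrays, while Dcn, Lum and S100a4 did not pass. Of 8 endoderm markers 7 passed, with a mean level of 5.48 to 5.85 in Hira-null and 5.95 to 6.42 in WT arrays and median deviations of -0.31, -0.15 and -0.01 in Hira-null and 0.40, 0.07 and -0.0017 in WT arrays, and Afp did not pass. WT replicate 1 was the highest WT array for 7 of 9 fibroblast and 5 of 7 endoderm markers, against 38.9% of all genes. Hira-null replicate 3 was the highest Hira-null array for 7 of 9 fibroblast and 6 of 7 endoderm markers, against 38.5%. In bulk RNA, a change in the share of cells of a type and a change of RNA per cell cannot be told apart.

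Of the tested members, Egln1 and Ankrd37 lie on chromosome 8 and Slc16a3, Aldoc and P4ha2 on chromosome 11, and the genes of these 2 chromosomes as a whole read lower in Hira-null arrays. The median log2 fold change was -0.27 over the genes of chromosome 8 and -0.24 over those of chromosome 11. All 5 members there had lower means in Hira-null arrays, with a median of -1.25 (-0.71 without Hira-null replicate 3). Most tested genes of these chromosomes were lower too. Over all genes tested 7714 of 15199 had lower means, and outside these 2 chromosomes it was 5940 of 13039. With the chromosome median subtracted, Aldoc stood at -1.77, Slc16a3 at -1.18, Egln1 at -0.98, Ankrd37 at -0.49 and P4ha2 at -0.35. Outside these chromosomes, 20 of 27 tested members were lower, against 45.6% of all genes outside them. The median was -0.26 for these members, against 0.02 over all genes outside. Leaving out Hira-null replicate 3 gave the members a median of -0.03, with 16 of 27 lower, against 5844 of 13039 genes.

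Further genes of the same pathways were taken from lists of general knowledge, and 69 of 78 were tested. None passed (limma, with 6 lower and 2 higher at an unadjusted p under 0.05, against 6.29% and 4.17% of all genes), and their median was -0.09 (-0.045 without Hira-null replicate 3). Among 15 other glycolysis genes the smallest p belonged to the muscle phosphoglycerate mutase gene Pgam2 on chromosome 11, with 5.32, 5.18 and 5.18 in Hira-null against 6.33, 5.96 and 6.30 in WT arrays (-0.97, SE 0.15, limma adjusted p = 0.220). It was followed by the testis lactate dehydrogenase gene Ldhc at -0.53 and by Pfkfb2, another gene of fructose 2,6-bisphosphate turnover, at 0.85 (0.37 without Hira-null replicate 3). In this list WT replicate 2 was the lowest WT array for 6 of 15 genes, Hira-null replicate 2 the highest Hira-null array for 3 and Hira-null replicate 3 the lowest for 6.

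Around pyruvate dehydrogenase, the phosphatase gene Pdp2 on chromosome 8 stood at -0.68, the E1 alpha subunit gene Pdha1 at 0.33 and the E3 subunit gene Dld at -0.19 (10 genes, median -0.12). Here WT replicate 2 was lowest for 8 of 10, Hira-null replicate 2 highest for 2 and Hira-null replicate 3 lowest for 7. In the pentose phosphate pathway, the lactonase gene Pgls on chromosome 8 stood at -0.38, the transketolase gene Tkt at -0.30 and the ribose phosphate isomerase gene Rpia at 0.18, or 0.092 without Hira-null replicate 3 (6 genes, median -0.02). The counts in that list were 3, 1 and 2 of 6. Among 12 further genes of the HIF machinery, 8 had higher means in Hira-null arrays, with a median of 0.12. None of these 12 lies on chromosomes 8 and 11. Of all genes outside those chromosomes, 7005 of 13039 had higher means, with a median of 0.02. The elongin B gene Elob, whose product belongs to the VHL ligase, read 10.71, 10.67 and 10.74 in Hira-null against 10.11, 9.82 and 9.96 in WT arrays (0.74, SE 0.13, limma adjusted p = 0.220). Its other probe set gave 0.71. Arnt2, a partner of HIF alpha, stood at 0.31 (0.16 without Hira-null replicate 3) and the cullin gene Cul2 at 0.23. In this list WT replicate 2 was lowest for 4 of 12, Hira-null replicate 2 highest for 2 and Hira-null replicate 3 lowest for 5. Among 26 further HIF targets the median was -0.10. The adenylate kinase gene Ak4 read 7.94, 7.65 and 6.23 in Hira-null against 8.60, 8.91 and 8.27 in WT arrays (-1.32, SE 0.44, limma adjusted p = 0.388). It was -0.80 without Hira-null replicate 3, and its other probe set gave -0.57. The hydroxylase gene Jmjd6 on chromosome 11 stood at -0.51 and the haem oxygenase gene Hmox1 on chromosome 8 at -0.96 (-0.48 without WT replicate 2). Among these targets WT replicate 2 was lowest for 18 of 26, Hira-null replicate 2 highest for 11 and Hira-null replicate 3 lowest for 10 and highest for 12.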

How the data were processed

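Total RNA of 3 Hira-null and 3 WT samples was hybridised to 1-colour Affymetrix arrays. The authors deposited log2 values for 35557 probe sets; the submitters' processing notes name GCRMA, which corrects background and normalizes between arrays, and give no version. That the values are log2 follows from their range, and they were used as deposited. The genome build of the probe annotation is not given in the sources used here. Of the probe sets, 21789 carry 1 symbol, and 21698 of these matched a RefSeq gene table (GRCm38.p6) used for names and chromosomes. Probe sets above 3.78 on at least 3 of 6 arrays were kept (25142), and a gene was represented by its kept probe set with the highest mean (15199 genes). The lines were compared with limma 3.58.1 in R 4.3.3 (lmFit and eBayes, two-sided, no covariates), and p-values were adjusted after Benjamini and Hochberg over all kept probe sets. The procedure was tested on simulated data. All measured members are named, and of each further pathway list the 3 genes with the smallest p. The members and lists were chosen with earlier results of these data known. Promoters come from RefSeq. Summaries and figures used Python 3.11.15. Alternatives were no filter and a stricter filter (4.99), quantile normalization, median centring, eBayes with trend and robust settings, arrayWeights, a replicate block, arrays left out, subtraction of chromosome medians, the mean of a gene's probe sets, and the other Hk1 probe set, this last chosen after seeing the data.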

Additional observations from a re-analysis of the deposited data

How the results depend on the processing

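No member passed the adjusted threshold in limma under any of the 15 alternatives with a test, and 15 of 32 kept their sign in every alternative run for them, 16 changed it in at least 1, and Hk1 was at 0 in 1. Pfkfb4 did not pass the stricter filter. Leaving out 1 array at a time gave between 4 and 10 members at an unadjusted p under 0.05, against 4 with all arrays, while the share of all genes lay between 7.12% and 10.6%. The medians were -0.57 to -0.14 for the members, -0.49 to -0.03 for the glycolytic enzymes and -0.81 to -0.32 for the other HIF targets. In these runs the log2 fold change ranged from -0.53 to 0.315 for Hk2, -0.40 to 0.068 for Pfkp, -0.44 to 0.057 for Pgam1, -0.35 to 0.59 for Eno2, -0.49 to 0.082 for Ldha, -0.71 to 0.125 for Pdk1, -0.35 to 0.60 for Vegfa, -1.37 to 0.027 for Bnip3, -0.625 to 0.085 for Ndrg1 and -0.29 to 0.79 for Ddit4. With WT replicate 1 and Hira-null replicate 3 both left out, the sign turned for Hk2 (0.32), Pfkl (0.095), Pfkp (0.185), Aldoa (0.085), Tpi1 (0.01), Pgk1 (0.08), Pgam1 (0.07), Eno2 (-0.105), Pkm (0.035), Ldha (0.13), Pdk1 (0.105), Egln3 (0.05) and Bnip3 (0.205), and the members' median was 0.03. WT replicate 1 was the highest WT array for 18 of 32 members and Hira-null replicate 3 the lowest Hira-null array for 20 of 32. Leaving out this pair therefore raises the difference for such members. The opposite pair, WT replicate 2 and Hira-null replicate 2, was not left out together. Left out alone, they gave members' medians of -0.50 and -0.57. The cause of the sign changes was not tested. With arrayWeights the sign turned for Hk2 (0.12) and Pfkp (0.035). Same-numbered arrays of the lines did not deviate together (correlations of -0.34, 0.17 and -0.10), and the replicate block gave 0 members past the threshold, 4 at an unadjusted p under 0.05 (7.86% of all genes) and the same median of -0.31. The number of arrays limits what could be called. With the other Hk1 probe set, chosen after seeing the data, the median was -0.36 for the members and -0.27 for the enzymes.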
